A study of Mus musculus with 39 samples.

Results

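The 10 genes studied here belong to the oxidative stress response and were followed in mouse epididymal adipose tissue. They are Nfe2l2, Nqo1, Hmox1, Gclc, Gclm, Txnrd1, Srxn1, Cat, Sod2 and Gpx3. They make up 10 of the 29411 gene names on the array. The members were all probes that carry 1 of these names, which gave 13 probes. Srxn1 had 3 probes, Nfe2l2 had 2, and the other 8 genes had 1. The brightest probe stood for each gene and the others served as a check.

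Cells meet reactive oxygen species with enzymes that are partly switched on by the transcription factor NRF2, the product of Nfe2l2. NRF2 is held back by KEAP1 in resting cells, and after oxidative or electrophilic stress it binds antioxidant response elements together with small MAF proteins. In fat tissue, enlarging adipocytes and the immune cells that enter the tissue are both known sources of reactive oxygen species.

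RNA from the epididymal fat of C57BL/6J mice was hybridised on 39 one-colour Agilent arrays, with 1 array for each diet and time point. LFC mice ate a diet with 10% of calories from fat (11 arrays), and HFC mice ate a diet with more sucrose and 60% of calories from fat (10 arrays). HF5, HF20 and HF75 mice ate the high-fat diet with 5, 20 or 75 µg of the ethnobotanical formulation KAL-1 (6 arrays each), whose ingredients the labels do not give. LFC was sampled at day 1, both LFC and HFC at days 6, 10 and 14 and week 0, and all 5 groups at weeks 3, 6, 9, 12, 15 and 18. By the study's methods the weeks run from day 14, so day 14 and week 0 are nominally the same time, but the labels list them apart and they were kept as separate time points. Mice were weaned and assigned at 3 to 4 weeks of age, and whether an array held 1 mouse or a pool is not given in the sources used here. Arrays of a diet at different time points were taken as its replicates. The SDs of levels, the correlations and the tests within a diet thus carry change over time as well as the spread between animals. In tests between diets the time point was a block or paired the arrays. Only change over time that differed between diets remains there, beside the spread between animals.

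All levels are log2 of the processed signal minus the 75th percentile of the array, so a level of 0 equals that percentile and a difference of 1 is a 2-fold difference. Levels of different genes were not compared, since each probe has its own brightness. The LFC week 3 array had 16431 outlier spots and the HFC week 12 array 10531, against 21 to 387 on the other 37. They are called the 2 outlier-rich arrays here, and results that turn without them are also given without them. Every member was well above background on at least 38 arrays. Gclm was not well above background on the HF5 week 9 array, and Srxn1 had no value on the LFC week 3 array. Sod2 was saturated on 6 arrays and Hmox1 on the HF75 week 15 array, so these values are lower bounds. All 11 adipocyte markers and all 10 macrophage markers on the array were above background on each of the 37 arrays. Epididymis markers were detected on some arrays, with summed log2 levels from -3.99 to 7.70, and none of the 13 was detected on all 37. Their median level did not pass a test of correlation with any member, in either set of arrays described further on.

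The promoters of 8 of the members were in the RefSeq table of build GRCm38.p6, each with 250 bases before and 50 after the start site. The core letters of an antioxidant response element, TGACNNNGC, were searched on both strands, and 12.4% of all 32851 promoters held a match. A match lay in 4 members, Nfe2l2, Gclm, Srxn1 and Txnrd1, the last in 1 of its 3 listed promoters. Of these genes Txnrd1, Srxn1 and Nfe2l2 rose and fell together across arrays, as described further on. Gclm did not vary with those 3. Its r with them was -0.33 to -0.23 over the 37 arrays, and none passed. A link between a match and these correlations was not tested. The windows are shown with the match in capitals and 10 bases on each side. The position of the match is counted from the start site (negative upstream).
Nfe2l2, chr2:75704885-75704913, minus strand, position -240: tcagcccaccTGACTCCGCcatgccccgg
Gclm, chr3:122245413-122245441, minus strand, position -134: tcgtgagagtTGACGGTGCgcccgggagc
Txnrd1, chr10:82859104-82859132, minus strand, position -92: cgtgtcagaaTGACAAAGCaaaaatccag
Srxn1, chr2:152105542-152105570, minus strand, position 29: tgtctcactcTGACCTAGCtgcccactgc
No match lay in the windows of Nqo1, Cat, Sod2 and Gpx3. Bases farther from the start site were not searched, so a gene without a match here may hold one elsewhere. The Cat window held 4 copies of CCAAT, the CCAAT box, counted on both strands, which 1.06% of all promoters equalled or passed, while 37.4% held at least 1. The 250 bases upstream of Cat, the member whose level followed the peroxisome genes, are given with these copies in capitals.
Cat, chr2:103485154-103485403, minus strand: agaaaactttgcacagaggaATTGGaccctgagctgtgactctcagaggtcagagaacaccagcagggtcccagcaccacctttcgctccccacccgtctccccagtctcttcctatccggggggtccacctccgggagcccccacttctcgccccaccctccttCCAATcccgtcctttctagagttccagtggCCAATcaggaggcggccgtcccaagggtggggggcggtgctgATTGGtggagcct
A match is a description of letters and was not tested as a binding site.

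**Figure D1:**
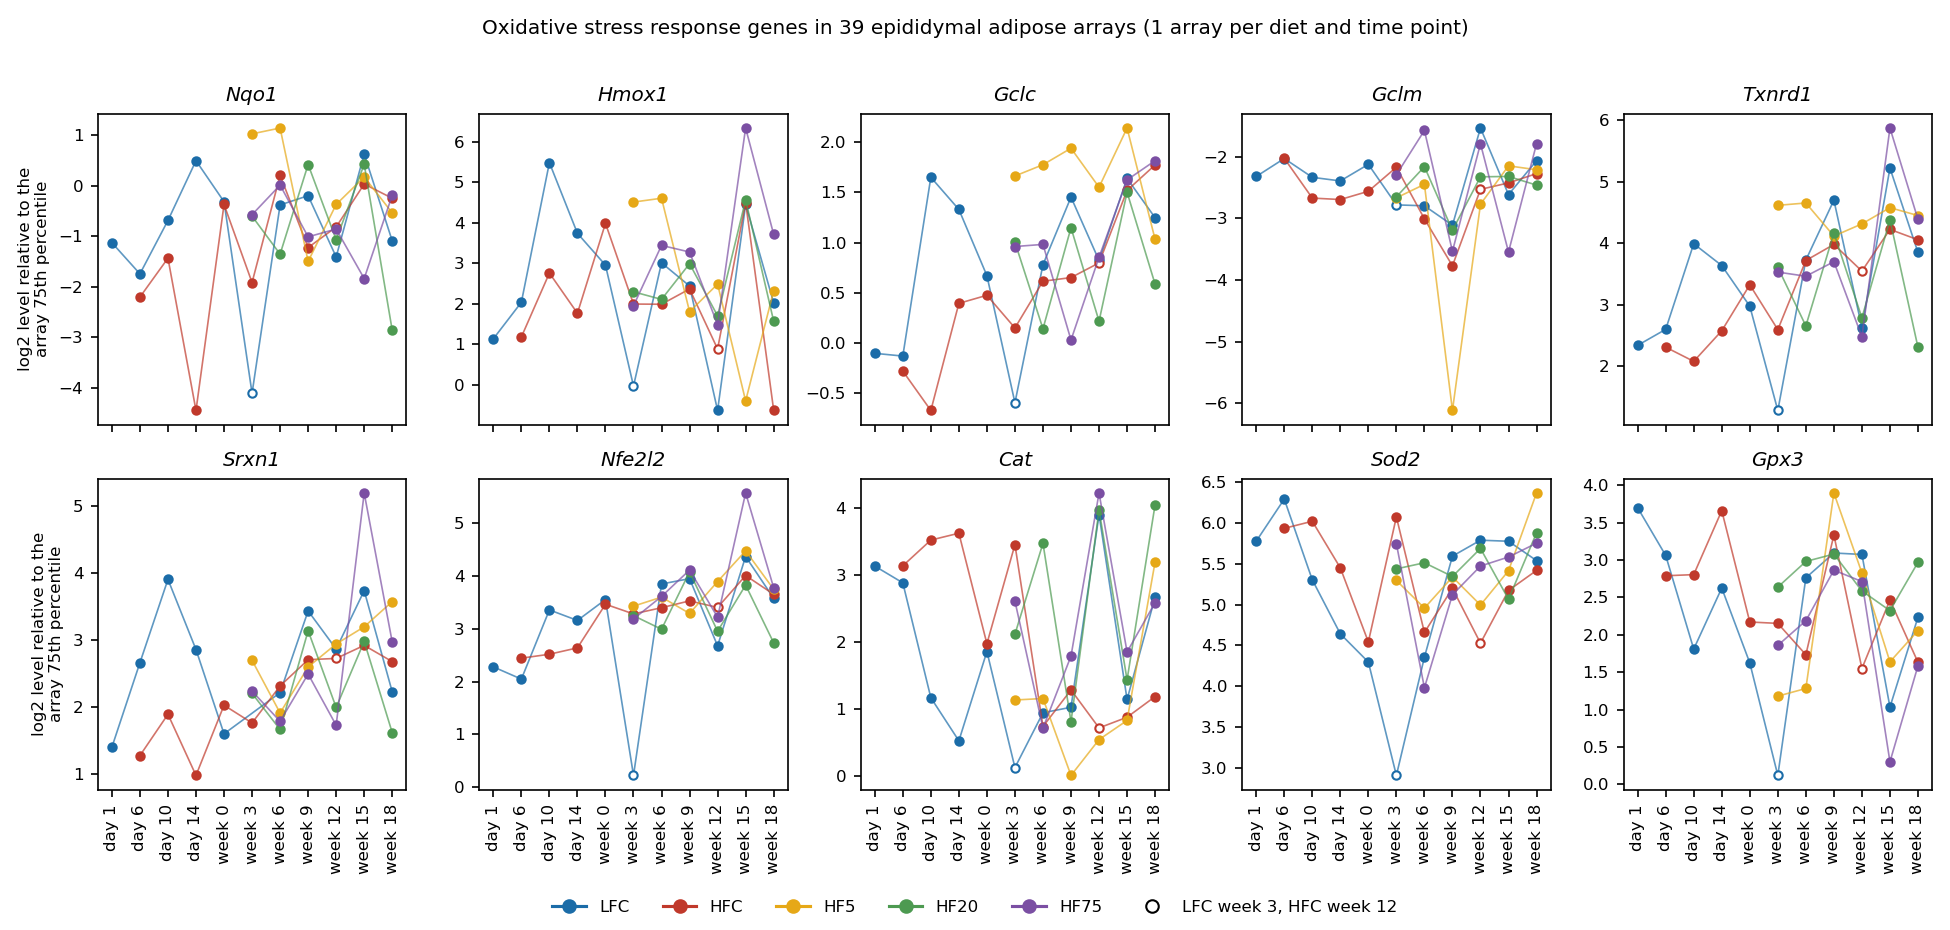
Level of each gene (log2 relative to the array's 75th percentile, vertical axis) at each time point (horizontal axis), 1 point per array, coloured by diet; lines join the arrays of a diet and open circles mark LFC at week 3 and HFC at week 12. The diets overlap at most time points. Cat in HFC lies at 3.14 to 3.62 at days 6 to 14 and at 0.72 to 1.28 at weeks 6 to 18. Between these it lies at 1.97 at week 0 and 3.45 at week 3.

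The members differed in how far they moved. Over the 37 arrays, Hmox1, which encodes the heme-degrading enzyme heme oxygenase 1, spanned the widest range, from -0.63 through a median of 2.37 to 6.34. Nqo1, a quinone reductase, ran from -4.45 through -0.58 to 1.14. Cat, the catalase of peroxisomes, ran from 0.01 through 1.85 to 4.22. The SD across these arrays was 1.56 for Hmox1 and 1.22 for Cat. Nfe2l2 itself moved less, from 2.05 through 3.47 to 5.58, with an SD of 0.68. Sod2, the manganese superoxide dismutase of mitochondria, ran from 3.98 through 5.44 to 6.37 with an SD of 0.55, the smallest SD of the 10 genes, and its highest values include saturated spots. Gclc and Gclm encode the catalytic and the modifier subunit of the enzyme that limits glutathione synthesis. Gclc ran from -0.67 through 0.98 to 2.14, and Gclm from -6.12 through -2.39 to -1.53. Without its HF5 week 9 value, Gclm in HF5 ran from -2.77 to -2.15. Txnrd1, the cytosolic thioredoxin reductase, ran from 2.08 through 3.72 to 5.87. Srxn1, which repairs overoxidised peroxiredoxins, ran from 0.98 through 2.50 to 5.19. Gpx3, a secreted glutathione peroxidase, ran from 0.30 through 2.59 to 3.90.

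The highest values of 4 of these genes came from a single array. The HF75 week 15 array held the maximum of Hmox1 (6.34, saturated), Txnrd1 (5.87), Srxn1 (5.19) and Nfe2l2 (5.58), and the minimum over the 37 arrays of Gpx3 (0.30). That array was not among those with many outlier spots.

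In the 30 arrays of weeks 3 to 18, time point accounted for more of the variation than diet in all 10 members. Time point took 51.9% of the sum of squares of Gclm, 47.8% of Srxn1, 45.2% of Gpx3, 42.2% of Nfe2l2 and 39.6% of Txnrd1, against a median of 27.7% over all probes with a value on each array. Nqo1 and Sod2 lay below that median, at 16.0% and 25.1%. Diet took most in Gclc, at 25.3%, and Cat, at 20.3%, against a median of 12.9%. For the other 8 genes diet took between 6.80% (Sod2) and 16.5% (Txnrd1). With the 2 outlier-rich arrays left out, Gclc was the exception, with 31.3% for diet and 27.4% for time point, and the time point share of Sod2 was 53.5%. These shares are a description with no test. Scan date ran with time point at most weeks, so the 2 cannot be told apart. The exceptions were the LFC week 3 array and week 6, where HF20 and HF75 were scanned apart from LFC, HFC and HF5. At week 6 scan date thus ran with diet.

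The first comparison asked whether the high-fat, high-sucrose diet changed these genes. No member passed an adjusted p of 0.05 (limma, time point as a block, Benjamini-Hochberg over all probes tested) over the 10 time points shared by HFC and LFC, where 0% of 29168 probes were called and 3.05% had an unadjusted p under 0.05. The member differences, HFC minus LFC, ran from -0.66 to 0.43 with a median of -0.23, beside 0.03 for all probes. Srxn1 had the lowest p of the 10. It was lower in HFC at 6 of 9 time points, by -0.66 (SE 0.30, 95% interval -1.33 to 0.00, p = 0.0505, adjusted p = 0.998), and its other probes gave -0.63 (p = 0.0394) and -0.61 (p = 0.0229). In HFC the Srxn1 values were 1.28, 1.90, 0.98, 2.03, 1.77, 2.32, 2.71, 2.73, 2.92 and 2.68 from day 6 to week 18. In LFC they were 2.66, 3.91, 2.86, 1.60, 2.22, 3.44, 2.87, 3.74 and 2.23, with week 3 missing. An exact sign-flip permutation test over the 9 pairs gave p = 0.082. The groups overlapped. The values under 1.5 were all from HFC at these time points, and those over 3 were all from LFC. The paired arrays also differed in 11 immediate early genes (Fos, Jun, Egr1 and others, described with HF20 below). Their summed level was 3.95 and 7.45 in HFC at days 10 and 14, against 8.75 and 8.74 in LFC. At week 12 LFC was the lower, at 3.76 against 8.10 in HFC. The part of these genes in the member differences was not tested.

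With the 2 outlier-rich arrays left out, the Hmox1 difference was -1.03 (SE 0.42, p = 0.0334, adjusted p = 0.708 by limma) and that of Srxn1 -0.73 (SE 0.31, p = 0.0425). With them, Hmox1 gave -0.47 (SE 0.47). Without them, 2 of 10 members and 6.66% of all probes had an unadjusted p under 0.05. Nfe2l2 turned from 0.16 (SE 0.33) to -0.28 (SE 0.16), so its direction rested on those arrays.

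Over weeks 3 to 18, the same diets gave no called member, with 0% of 31450 probes called, and no member had an unadjusted p under 0.05, as 2.31% of all probes did. The member differences ran from -0.31 to 0.44 with a median of 0.06, which is also the median of all probes. These directions rested on the 2 outlier-rich arrays, without which all 10 differences were below 0, with a median of -0.26 beside 0.01 for all probes and no unadjusted p under 0.05. Txnrd1 went from 0.12 to -0.44, Nfe2l2 from 0.44 to -0.14 and Nqo1 from 0.43 to -0.23. The widest 95% interval belonged to Hmox1, at -1.75 to 1.70 around a difference of -0.03, and the narrowest to Gclc, at -0.63 to 0.69 around 0.03.

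The next comparisons asked what KAL-1 added to the high-fat diet, and all 3 doses shared the HFC arrays. No member was called for HF5, HF20 or HF75, and neither was any other probe (0% in each). For HF5, 8 of 10 members lay above HFC (7 with the 2 outlier-rich arrays left out), with a median difference of 0.26 beside -0.03 for all probes, and 1 member had an unadjusted p under 0.05, against 3.42% of all probes. That gene was Gclc. Its HFC values at weeks 3 to 18 had a lowest of 0.15, a median of 0.72 and a highest of 1.77, and its HF5 values 1.03, 1.72 and 2.14. The ranges overlapped, and HF5 lay above HFC at 5 of 6 time points, week 18 being the exception. The difference was 0.77 (SE 0.32, 95% interval 0.10 to 1.43, p = 0.0253, adjusted p = 0.954 by limma). Txnrd1 was higher in HF5 than in HFC at 6 of 6 time points, by 0.14 at week 9 to 2.02 at week 3. Its HF5 values were close together, from 4.11 through 4.51 to 4.65, while HFC ran from 2.59 through 3.85 to 4.22, so that only the highest HFC and the lowest HF5 value overlapped. The mean difference was 0.77 (SE 0.43, limma p = 0.0893, adjusted p = 0.954), and an exact sign-flip permutation test gave p = 0.0312, the smallest that 6 pairs allow. With the 2 outlier-rich arrays left out it was 0.91 (SE 0.38, limma p = 0.0267, adjusted p = 0.726). In that setting 2 members and 6.06% of all probes had an unadjusted p under 0.05. The HFC array of week 3 was low in immediate early genes, at a summed 6.75 against 8.99 in HF5. The part of this in the Gclc and Txnrd1 differences was not tested.

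**Figure D2:**
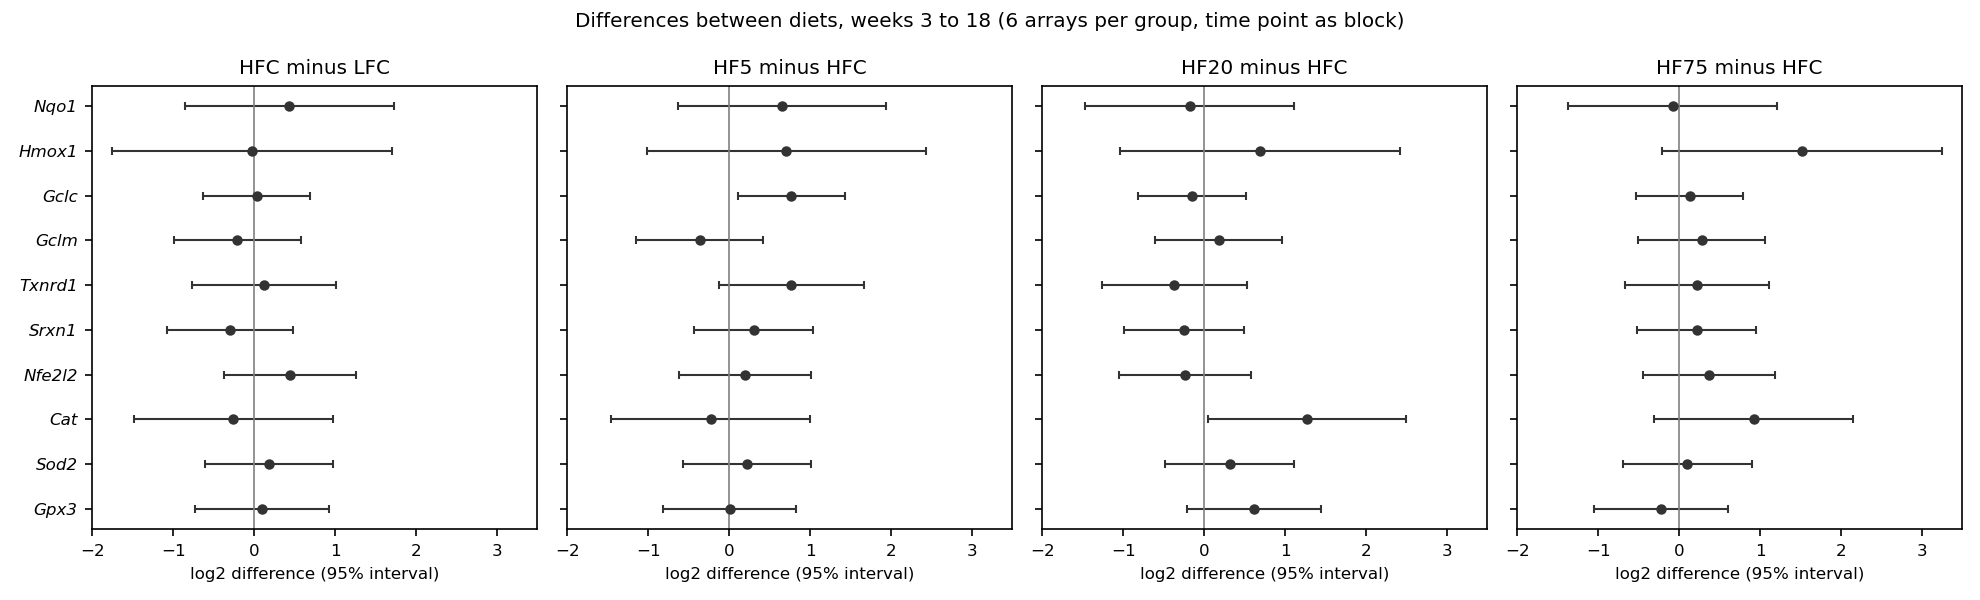
Difference in log2 level for each gene (points) with its 95% interval from limma (bars), for HFC minus LFC and for each KAL-1 dose minus HFC, over 6 time points. All intervals include 0 except those of Gclc for HF5 (0.10 to 1.43) and Cat for HF20 (0.04 to 2.49), neither of which passed the adjusted test.

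For HF20, 5 members lay above and 5 below HFC, with a median of 0.01 beside -0.07 for all probes, and 1 had an unadjusted p under 0.05, against 4.84% of all probes. That gene was Cat. Its HFC values were 3.45, 0.74, 1.28, 0.72, 0.87 and 1.18 at weeks 3, 6, 9, 12, 15 and 18. Its HF20 values at the same weeks were 2.11, 3.47, 0.81, 3.97, 1.43 and 4.05. HF20 was higher at weeks 6, 12, 15 and 18 and lower at weeks 3 and 9, and the groups overlapped. At week 6 the HF20 and HFC arrays also differed in scan date. The difference was 1.27 (SE 0.59, 95% interval 0.04 to 2.49, p = 0.0436, adjusted p = 0.780 by limma), and with the 2 outlier-rich arrays left out it was 0.91 (SE 0.56, p = 0.119). The 3 HF20 arrays with Cat above 3 were also those with the lowest immediate early genes of their group. The summed level of these 11 genes (Fos, Jun, Egr1 and others, which respond within minutes to stimulation and handling) was 4.21 to 5.01 on them and 8.81 to 9.02 on the other 3. All 11 immediate early genes lay below HFC, with a median of -1.91, and 7 had an unadjusted p under 0.05. Of the adipocyte markers 9 of 11 lay above HFC (median 0.65), as did all 12 epididymis markers tested (median 1.63). The part of these in the Cat difference was not tested. Hmox1 lay above HFC at 6 of 6 time points in HF20, by 0.07 to 2.19, with a mean of 0.69 (SE 0.84, limma p = 0.419, adjusted p = 0.832; exact sign-flip permutation p = 0.0312), which was 0.39 without week 18.

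For HF75, 8 members lay above HFC (7 with the 2 outlier-rich arrays left out), with a median of 0.22 beside -0.01 for all probes. None had an unadjusted p under 0.05, and 1.5% of all probes did. Hmox1 had the largest difference, 1.52 (SE 0.84, 95% interval -0.21 to 3.24, limma p = 0.0825, adjusted p = 1.00), and was higher at 5 of 6 time points. The week 18 pair alone differed by 4.33, and without it the difference was 0.95. Its HF75 values ran from 1.49 through 3.36 to 6.34 and its HFC values from -0.62 through 1.99 to 4.50. The same gene lay above HFC by 0.70 (SE 0.84) in HF5, where the week 15 pair differed by -4.89 and the difference without it was 1.82. These values share the HFC arrays, and the doses were not tested against each other.

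With the 3 doses averaged, all 10 members lay above HFC, by 0.03 (Gclm) to 0.97 (Hmox1), with a median of 0.17 beside -0.02 for all probes. With the 2 outlier-rich arrays left out 8 did, Gclm being at -0.04 and Gpx3 at -0.09, and without week 18 Hmox1 was at 0.53. None was called or had an unadjusted p under 0.05, against 0% and 1.75% of all probes. Since the members vary together, their common sign is not 10 separate observations. Against LFC, the averaged doses gave 8 members above and 2 (Gclm and Srxn1) below, none of them called (0% of probes) or with an unadjusted p under 0.05 (7.34% of probes). With the 2 outlier-rich arrays left out, the median member difference turned from 0.36 to -0.07.

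The order of the 5 group means over weeks 3 to 18 differed from gene to gene. HF5 had the highest mean of Nqo1, Gclc and Txnrd1, HF75 of Hmox1, Gclm and Nfe2l2, and HF20 of Cat, Sod2 and Gpx3. The largest step between neighbouring means was 0.81, in Hmox1, where SDs within groups were 1.11 to 1.91. In each gene the largest such step was smaller than the largest SD within a group, and most neighbours did not differ beyond their spread. The step from HF75 to HF5 in Gclc, 0.64, was close to the SD of HF75 (0.63) and above that of HF5 (0.38).

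The comparison of late with early time points asked how the genes changed with age and length of feeding. In HFC, weeks 3 to 18 were set against days 6, 10 and 14 and week 0. No member was called, and 0% of 30581 probes were. An unadjusted p under 0.05 was found for 5 members and for 16.8% of all probes. The median member difference was 0.29, beside 0.03 for all probes. Srxn1 (0.97, SE 0.31, p = 0.0103), Txnrd1 (1.11, SE 0.37, p = 0.0119), Nfe2l2 (0.78, SE 0.27, p = 0.0162) and Gclc (0.94, SE 0.38, p = 0.0309) were higher late, and Cat was lower (-1.69, SE 0.56, p = 0.0118). Their adjusted p-values by limma were 0.229 to 0.266. The other probes of Srxn1 gave 0.44 (p = 0.182) and 0.29 (p = 0.312), so this difference rested on its brightest probe, while the second probe of Nfe2l2 gave 0.80 (p = 0.0326). Cat in HFC was 3.14, 3.52 and 3.62 at days 6, 10 and 14, 1.97 at week 0 and 3.45 at week 3. From week 6 on it was 0.74, 1.28, 0.72, 0.87 and 1.18. The week 3 value thus lay with the early ones, and the groups overlapped. Txnrd1 in HFC was 2.31, 2.08, 2.58 and 3.32 at the 4 early time points and 2.59, 3.72, 3.98, 3.55, 4.22 and 4.05 from week 3 to week 18. Nfe2l2 was 2.44, 2.52, 2.64 and 3.47 early, and 3.28 to 4.01 late.

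Their direction was the same under each of the alternatives, but the sizes were not. With week 0 as the only early array, the differences were 0.36 for Txnrd1, 0.08 for Nfe2l2 and -0.60 for Cat. With arrays weighted by their quality, 6 members were called (Txnrd1 1.54, Gclc 1.35, Srxn1 1.19, Nfe2l2 1.09, Cat -2.17, and Nqo1), as were 25.9% of all probes. The 4 HFC arrays highest in Cat, those of days 6, 10 and 14 and week 3, were also the lowest in immediate early genes, at a summed 3.73 to 7.45. All 11 immediate early genes lay higher late, with a median of 2.93, and 9 had an unadjusted p under 0.05. Adipocyte markers lay lower (median -0.81, 2 of 11 above 0), as did all 6 mesothelium markers (median -1.62). Their part in the member differences was not tested. Scan dates of the early and late arrays differed throughout, so time point and scan cannot be told apart.

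**Figure D3:**
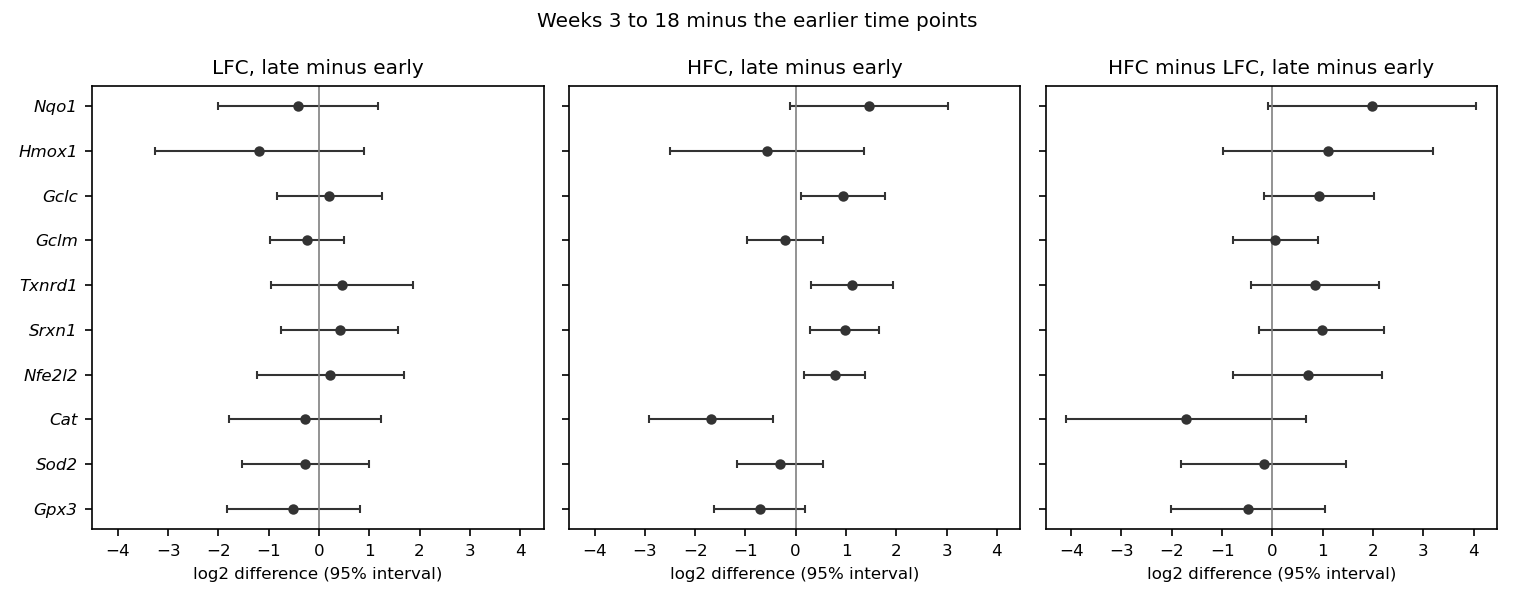
Late minus early difference in log2 level (points) with its 95% interval from limma (bars) within LFC (11 arrays), within HFC (10 arrays), and for the HFC minus LFC difference (10 time points). Intervals exclude 0 only within HFC, for Gclc, Txnrd1, Srxn1, Nfe2l2 and Cat.

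In LFC the same contrast, with day 1 added to the early arrays, called 0.49% of 30418 probes (149) but no member. No member had an unadjusted p under 0.05, against 5.52% of all probes. Hmox1 had the largest LFC difference, -1.19 (SE 0.96, p = 0.237), which was -1.71 to -0.59 when each time point was left out in turn. The Cat difference was -0.28 (SE 0.70, 95% interval -1.79 to 1.24), and 0.02 with the outlier-rich LFC array left out. The difference between the diets in this change was tested directly and called no member and 0% of 29168 probes; 5.14% of probes and no member had an unadjusted p under 0.05. It was -1.71 (SE 1.09, p = 0.143, adjusted p = 0.842 by limma) for Cat and 1.98 (SE 0.95, p = 0.0592, adjusted p = 0.841) for Nqo1. The Nqo1 value rested on the day 14 pair, which differed by -4.94, and without it was 0.85. With the 2 outlier-rich arrays left out, Cat gave -1.88 (SE 0.72, p = 0.0276, adjusted p = 0.690). In that setting 1 member and 6.98% of all probes had an unadjusted p under 0.05. A change in HFC that differs from that in LFC was thus not shown for any member.

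The 37 arrays were split into 2 sets at the widest gap in the summed level of the immediate early genes. This level ran from 3.73 to 7.45 on 11 arrays and from 8.43 to 10.20 on the other 26. On the 11 arrays Txnrd1 was between 2.08 and 2.79 and Cat between 2.88 and 4.22. On the other 26 of the 37, Txnrd1 was between 2.98 and 5.87 and Cat between 0.01 and 3.19, so that the sets were apart in Txnrd1 and overlapped slightly in Cat. Nfe2l2 was 2.05 to 3.28 on the 11 and 3.16 to 5.58 on the 26. The separation of the 2 sets in the immediate early genes was fixed by the split and is not a result. The 11 arrays were 3 of LFC, 4 of HFC, 3 of HF20, 1 of HF75 and 0 of HF5. Over all 37 arrays, 27 of 45 gene pairs passed a permutation test of Pearson's r (adjusted p under 0.05). The share among pairs of other genes was not computed, either over the 37 arrays or within a set. A pooled coefficient mixes the 2 sets of arrays, so values are given within each. The cause of the 2 sets was not tested.

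Within the 26 arrays, 6 of 45 pairs passed. They joined Txnrd1 with Srxn1 (r = 0.80, p = 1e-05, the smallest that the permutations can give, adjusted p = 0.00045), with Nfe2l2 (r = 0.73, p = 1e-04, adjusted p = 0.00225), with Gclc (r = 0.62, p = 0.00074, adjusted p = 0.00877) and with Sod2 (r = 0.57, p = 0.00262, adjusted p = 0.0196). The other pairs were Srxn1 with Nfe2l2 (r = 0.69, p = 0.00078, adjusted p = 0.00877) and Srxn1 with Sod2 (r = 0.58, p = 0.0018, adjusted p = 0.0162). Spearman's rho was 0.71, 0.58, 0.70 and 0.53 for the 4 Txnrd1 pairs in that order, with permutation p of 0.00012, 0.00249, 8e-05 and 0.00613. It was 0.48 (p = 0.0138) for Srxn1 with Nfe2l2 and 0.59 (p = 0.00203) for Srxn1 with Sod2. By rho, 4 of the 6 pairs passed after adjustment, all but Srxn1 with Nfe2l2 and Txnrd1 with Sod2. Without the 2 arrays farthest from the median of the first gene, r fell to 0.45 for Txnrd1 with Nfe2l2 and was 0.56 to 0.68 for the other 5. After the mean of each time point was subtracted, r was 0.45 for Txnrd1 with Gclc and 0.54 to 0.78 for the others, which was not tested. The permutations shuffled arrays across time points, so their p-values do not allow for likeness between arrays of a time point. Txnrd1, Srxn1 and Nfe2l2 rose and fell together among these arrays, and so did Gclc with Txnrd1 and Sod2 with both Txnrd1 and Srxn1.

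Cat showed no such relation with 6 of the NRF2-linked members within the 26 arrays. Its r there with Txnrd1, Gclc, Nfe2l2, Srxn1, Nqo1 and Hmox1 was -0.28 to 0.04, and none passed. After time point means were subtracted, these r ran from -0.62 (Gclc) to 0.41 (Hmox1), which was not tested. Over all 37 arrays, with the 2 sets pooled, the 6 pairs had r of -0.70 to -0.37 and all passed. Gclm went the other way with Cat. Its r was 0.40 in the 26 arrays (permutation test, adjusted p = 0.154) and 0.46 over the 37 (adjusted p = 0.00418). In the 11 arrays none of the 45 pairs passed (lowest adjusted p = 0.343), and r of Cat was 0.73 with Gclc and 0.68 with Nfe2l2. Gclm, though it is the partner of Gclc in 1 enzyme, had an r of -0.0044 with it in the 26 arrays and 0.48 in the 11, and neither passed.

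**Figure D4:**
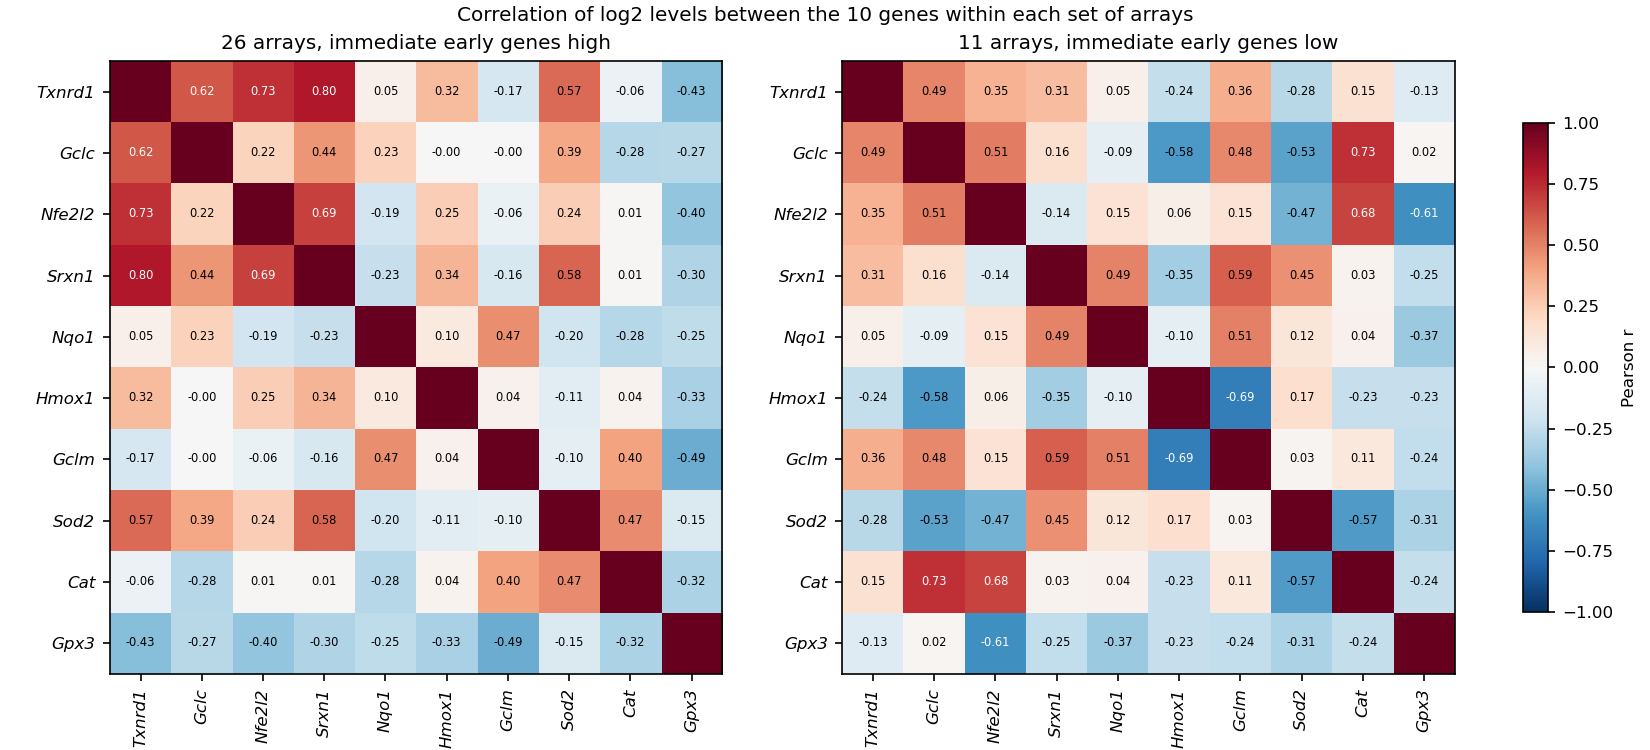
Pearson's r between the log2 levels of each pair of genes (colour and number) within the 26 arrays with high and the 11 arrays with low immediate early genes. In the left panel Txnrd1, Nfe2l2 and Srxn1 form a block of 0.69 to 0.80, and Cat lies near 0 with each of them.

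Other genes of the pathway were taken as 11 lists of 135 genes on the array. None of them was called in any of the 10 comparisons, where 134 or 135 were tested. Late against early in HFC, 27 of 135 list genes had an unadjusted p under 0.05, against 16.8% of all probes, among them 5 of 12 NRF2 regulators. The regulator with the lowest p was Maff, a small MAF partner of NRF2 (2.89, SE 0.94, p = 0.0106, adjusted p = 0.229 by limma). The lists lay on both sides of 0 there. Median differences were 0.64 for the metallothionein list and 0.46 for the NRF2 regulators, and -0.93 for peroxisome genes, -0.87 for suppliers of NADPH and -0.60 for the glutathione system, beside 0.03 for all probes. Among single genes, Ggt1, which breaks down extracellular glutathione, was lower late (-4.17, SE 1.02, p = 0.00181, adjusted p = 0.210), and Nox4, a hydrogen peroxide-producing oxidase, was higher (1.92, SE 0.49, p = 0.00251, adjusted p = 0.210). Slc40a1, the iron exporter ferroportin, was lower (-2.07, SE 0.53, p = 0.0025, adjusted p = 0.210), and so was Ehhadh, an enzyme of peroxisomal beta-oxidation (-2.13, SE 0.68, p = 0.0099, adjusted p = 0.228). For HF20 against HFC, 8 of 135 list genes had an unadjusted p under 0.05, against 4.84% of all probes, with Mgst3, a microsomal glutathione transferase, at 1.36 (SE 0.56, p = 0.0226, adjusted p = 0.780) and Gsta3, a glutathione transferase, at 2.09 (SE 0.87, p = 0.0237). All 13 peroxisome genes lay above HFC with a median of 0.86 beside -0.07 for all probes, although none of them had an unadjusted p under 0.05. Pecr had the lowest (1.18, SE 0.60, p = 0.0624). The median level of these genes was 1.88, 2.45 and 2.46 on the HF20 arrays of weeks 6, 12 and 18, which were low in immediate early genes, and 1.03, -0.01 and 0.38 on those of weeks 3, 9 and 15. The adipocyte markers had a median level of 5.71, 5.62 and 5.86 on the former and 5.30, 3.45 and 3.36 on the latter, and the part of either in the peroxisome difference was not tested. Lcn2, an iron-siderophore carrier, had the lowest p of the heme and iron list for HFC against LFC over weeks 3 to 18 (-2.39, SE 0.75, p = 0.004, adjusted p = 1.00).

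The median level of each list was then set against the members, and 8 of 110 relations passed within the 26 arrays and 1 within the 11. The share that would pass with other genes was not computed. Cat followed the suppliers of NADPH (r = 0.73, p = 3e-05, adjusted p = 0.0033; rho = 0.73, p = 6e-05) and the peroxisome genes (r = 0.70, p = 1e-04, adjusted p = 0.0055; rho = 0.64, p = 0.00058), with r of -0.23 and 0.33 in the 11 arrays. Nfe2l2 followed the metallothionein list (r = 0.69, p = 0.00027, adjusted p = 0.0099; rho = 0.61, p = 0.00116), and its r was 0.81 in the 11 arrays (adjusted p = 0.142). Gpx3 ran opposite to that list (r = -0.63, p = 0.00073, adjusted p = 0.0161; rho = -0.45, p = 0.023). Without the 2 farthest arrays these r were 0.58, 0.53, 0.43 and -0.38, and with time point means subtracted they were 0.44, 0.48, 0.68 and -0.56. Nqo1 ran opposite to the other NRF2 targets (r = -0.60, p = 0.00108, adjusted p = 0.0198; rho = -0.53, p = 0.00631). Sod2 followed those targets (r = 0.64, adjusted p = 0.0121), though r was 0.18 once time point means were subtracted. The relation of Gclm with the superoxide dismutase list (r = -0.67) rested on the farthest arrays, without which r was -0.12. Sod2 also followed the suppliers of NADPH (r = 0.57, p = 0.00242, adjusted p = 0.0333; rho = 0.43, p = 0.029), with an r of 0.39 without the 2 farthest arrays and 0.37 with time point means subtracted. The relation that passed in the 11 arrays was that of Srxn1 with the superoxide dismutase list (r = 0.91, p = 9e-05, adjusted p = 0.0099; rho = 0.78, p = 0.00643), while r was 0.35 in the 26.

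Among lists of cell types, the adipocyte markers were the only one to pass with a member in the 26 arrays. They rose with Cat (r = 0.71, p = 3e-05, adjusted p = 0.0033; rho = 0.75, p = 2e-05) and with Sod2 (r = 0.63, p = 0.00061, adjusted p = 0.0336; rho = 0.54, p = 0.00502). Without the 2 farthest arrays these values were 0.56 and 0.49, and with time point means subtracted 0.39 and 0.58. In the 11 arrays r was -0.68 for Cat and 0.91 for Sod2 (adjusted p = 0.0132). All 6 arrays with saturated Sod2 are among these 11, so much of that Sod2 relation rests on lower bounds. The summed level of the 11 adipocyte markers was 7.37 to 9.40 in LFC, 7.80 to 9.19 in HFC, 7.48 to 10.49 in HF5, 8.06 to 9.09 in HF20 and 7.87 to 9.18 in HF75. In whole tissue, fewer cells of a type and less RNA per cell cannot be told apart. The macrophage list had an r of 0.48 with Nfe2l2 (adjusted p = 0.253) and -0.22 with Cat (adjusted p = 0.723) in the 26 arrays.

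**Figure D5:**
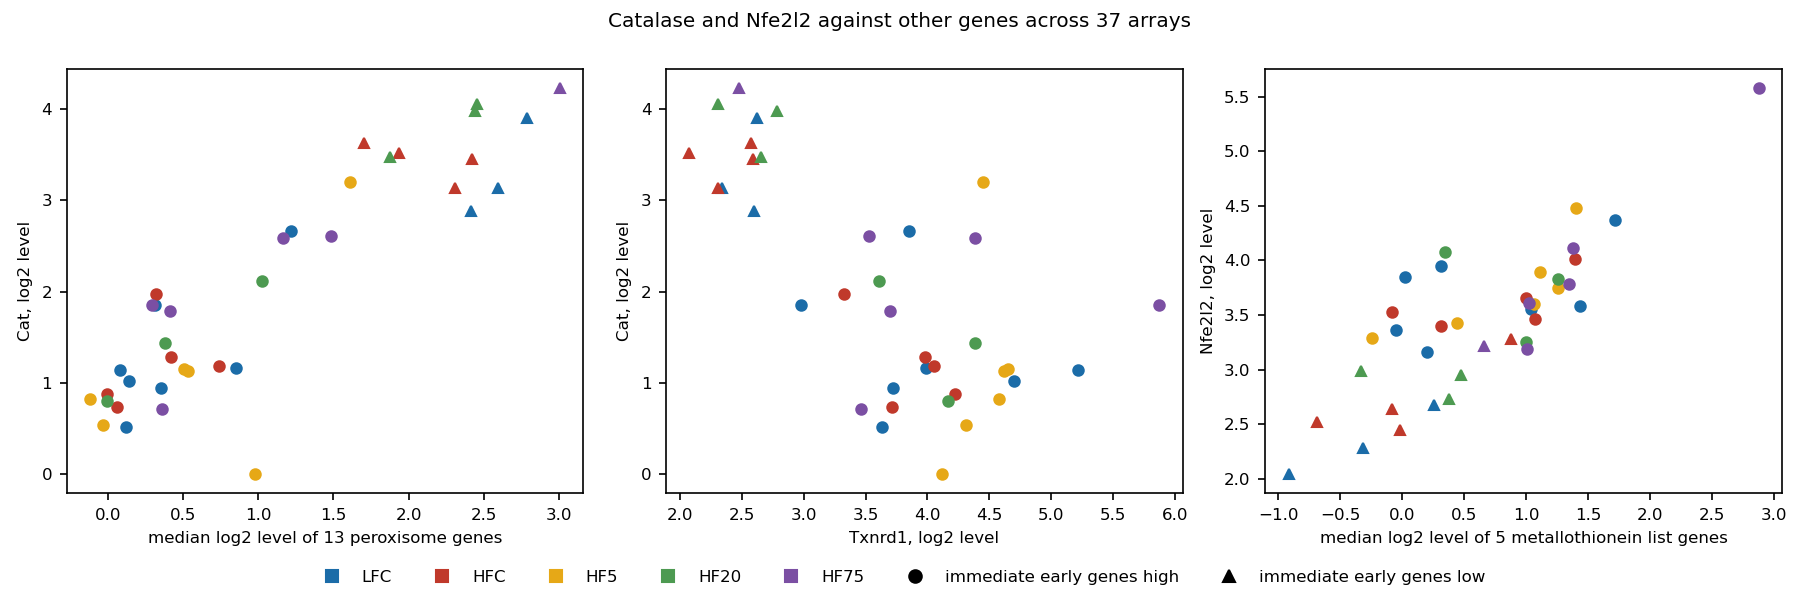
Left, log2 level of Cat against the median level of 13 peroxisome genes; middle, Cat against Txnrd1; right, Nfe2l2 against the median level of the 5 genes of the metallothionein list. Each point is 1 of 37 arrays, coloured by diet, with triangles for the 11 arrays low in immediate early genes, which sit apart from the other 26 in Txnrd1 and overlap with them slightly in Cat.

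The genes most like each member were sought by r across the 37 arrays among 17965 others, with both sets of arrays pooled, as a description with no test. Cat was most like Hsdl2, a peroxisomal protein (r = 0.97), followed by Gm7908 (0.95) and Etfa, a carrier of electrons from mitochondrial fatty acid oxidation (0.94), and within the 26 arrays these r were 0.92, 0.85 and 0.86. Nfe2l2 was most like Rsrc2 (0.95), Gpbp1 (0.93) and Kctd12 (0.93), and Txnrd1 most like Bcor (0.93), Plscr1 (0.93) and Swap70 (0.93). Gclc was nearest to Samd12 (0.87), Notch1 (0.87) and Map3k2 (0.86). For Gclm they were Gm5652 (0.86), Cdv3 (0.85) and 5730455P16Rik (0.84), and for Nqo1 Chn2 (0.85), Hoxb2 (0.81) and Tsc22d1 (0.80). Srxn1 was nearest to Il11, a cytokine (0.84), Ktn1 (0.84) and Rbm18 (0.83), and Sod2 to Asns (0.85), LOC635087 (0.84) and LOC100047573 (0.83). Gpx3 was nearest to Lrp1 (0.80), Sec16b (0.79) and Olfml1 (0.78). Hmox1 had the least close neighbours, Cytsb (0.72), Prcp (0.71) and Phxr5 (0.69). Within the 26 arrays these r were 0.41 to 0.95, and within the 11 they were -0.29 to 0.89. The median size of r over all candidates was 0.23 for Hmox1 and 0.41 for both Cat and Txnrd1.

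The second probe of Nfe2l2 and the other probes of Srxn1 followed the brightest ones over the 37 arrays, with r of 0.94 for Nfe2l2 and of 0.79 and 0.84 for Srxn1.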

How the data were processed

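The deposited files hold intensity values, the processed signals of Agilent Feature Extraction (version 10.5.1.1 per the file headers, 9.1 per the labels); the authors' table of fold changes between diets was not used. Outlier spots were set to missing, spots of a probe were averaged, and log2 values were centred on the array's 75th percentile, which ranged from 119 to 1472 on the 37 arrays, of whose probes 53.7% to 79.6% were well above background. Probes well above background on at least 10 of 20, 6 of 30, 5 of 11 or 4 of 10 arrays of a fit were tested with limma 3.58.1 (R 4.3.3) at an adjusted p of 0.05; other tests used scipy 1.17.1. The fit was checked on simulated data. The number of arrays limits the precision. The time point, given in the labels, paired the diets: deviations of same-time HFC and LFC arrays correlated at 0.12 to 0.74 in 8 of 8 pairs. Correlations used 100000 permutations, which did not keep arrays of a time point together. Benjamini-Hochberg adjustment was over 45 gene pairs, or 110 pairs of a list and a gene. The split at the widest gap in the immediate early genes was chosen after seeing the data. Tests were two-sided. All members were named; a list gene was named if called and otherwise if it had the smallest p of its list in a comparison, and the 3 highest r gave the likeness. Where nothing says that arrays came from separate animals, p-values measure only the spread between these arrays. The members and lists were chosen with earlier results of these data known. Alternatives covered the background correction, scaling, filter, weights, variance model, probes, block, slide, scan date and arrays left out.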

Additional observations from a re-analysis of the deposited data

Results flagged for a closer look

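Of 41 combinations of a gene and a diet with 4 to 10 arrays, 6 had 1 array far from the rest by Dixon's criterion, which chance passes in about 1 of 20. Nqo1 in HFC was -4.45 at day 14, with the next value at -2.21. Gclm in HF5 was -6.12 at week 9, with the next at -2.77, and was not well above background there. Srxn1 in HF75 was 5.19 at week 15, above 2.97, on the array that also held the maxima of Hmox1, Txnrd1 and Nfe2l2. Cat in HF5 was 3.19 at week 18, above 1.15, and Sod2 was 6.37 on the same array, above 5.42. Sod2 in HF75 was 3.98 at week 6, below 5.12. The causes were not tested.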

How the results depend on the processing

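The number of called members was recomputed 214 times over the 10 comparisons and was unchanged in 211. It stayed at 0 when any single time point was left out. The exceptions were 1 gene each for HF5 (Txnrd1) and HF20 (Hmox1) by the exact sign-flip permutation test at an unadjusted p under 0.05, which is a looser rule than the adjusted p, and 6 genes late against early within HFC with array weights. Without the time point as a replicate block the count was 0 in all 7 diet comparisons, and the block changed no call. The pairs of members that passed numbered 27 over 37 arrays, 6 within the 26 arrays high and 0 within the 11 low in immediate early genes; fewer arrays enter each set. The 7 differences with an unadjusted p under 0.05 kept their sign in all of 141 recomputed values, while 147 of 1905 values over all members and comparisons changed sign. Other scalings moved the median of all probes by -0.34 to 0.40 (normexp), -0.19 to 0.22 (quantile) and -0.21 to 0.35 (median), so small member differences have no settled direction. The authors' table was not run as an alternative, since it holds their own comparisons. With 6 arrays a diet, the SE of a member difference was 0.32 to 0.84 over weeks 3 to 18, which limits the differences that could be shown.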
